A study of Mus musculus with 6 samples.

Results

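The mitochondrial carriers of the Slc25 family were followed in mouse liver with and without Cre-induced IRF3-2D. The genes were taken by name, as every row of the deposited table with a symbol that begins with Slc25a and a number in GENCODE M21, plus Ucp2, which gave 46 genes of 20894 in all. Slc25a24 and Slc25a26, which the annotation also holds, were not analysed here. Liver RNA was sequenced from 6 samples of Irf3LSL-2D mice, all given 3 g/kg of ethanol into the peritoneum and collected 2 h later. The Ctrl group (n = 3) had received AAV8-TBG-GFP and the IRF3-2D group (n = 3) AAV8-TBG-Cre, so the allele, the type of vector, the TBG promoter and ethanol were common to both groups. IRF3 turns on interferon genes when cells sense viral nucleic acid, the allele is named for a 2D form of it, and the TBG promoter is active in hepatocytes. No group had Cre without the allele and none went without ethanol, so Cre, GFP and the allele cannot be told apart. Age, sex and strain are not in the labels, and whether each library stands for its own mouse is not either, so the p-values reflect only the spread among these libraries, which may be technical.

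Slc25 proteins are carriers of the inner mitochondrial membrane, most of which exchange a metabolite of the matrix for another of the cytosol, and a few members sit in peroxisomes or the outer membrane. In hepatocytes they link compartments for the urea cycle, gluconeogenesis, fatty acid synthesis, fatty acid oxidation, ATP export and the making of heme and glutathione. Most members are known for 1 group of substrates, while several have no settled substrate.

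Libraries held 12054096 to 14830629 counts. Levels are given as CPM, counts scaled to library size, after TMM scaling, a composition correction with factors from 0.822 to 0.879 for Ctrl libraries and from 1.12 to 1.23 for IRF3-2D libraries. A difference was called at a Benjamini-Hochberg adjusted p under 0.05 in edgeR's quasi-likelihood test over all 10802 genes that passed the count filter. Irf3 had 521, 552 and 772 counts in Ctrl and 1816, 1569 and 2084 in IRF3-2D libraries, higher in all 3 (2.41-fold, adjusted p = 0.00152), and a count per gene does not tell the 2D transcript from the endogenous one. All 9 hepatocyte markers were detected and tested in both groups, 7 of them called lower (Hnf4a, 1 of these, lost its call in 8 of the 14 alternatives) and 1 higher, with a summed level of 139445 to 183343 CPM in Ctrl and 72835 to 84151 in IRF3-2D. Markers of sinusoidal endothelium gave 4 lower and 0 higher of 7 tested, with a summed level of 450 to 464 CPM in Ctrl and 292 to 377 in IRF3-2D, while library totals alone gave 1 higher and none lower. Of all tested genes 13.1% were called lower and 13.2% higher, and 5.29% and 41.7% with library totals alone. The part of either cell type in the carrier values was not tested. In bulk tissue fewer cells of a type and less RNA per cell cannot be told apart.

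Of the 46 carrier genes 38 passed the filter, and 12 of these were called, 9 lower and 3 higher in IRF3-2D liver. That is 23.7% of the tested carriers lower and 7.89% higher, where 13.1% and 13.2% of all tested genes were called lower and higher. In either direction it is 31.6% of the carriers beside 26.3% of all tested genes. The falls were Slc25a48 (3.85-fold), Slc25a10 (2.43-fold), Slc25a45 (2.36-fold), Slc25a47 (1.94-fold), Slc25a33 (1.56-fold), Slc25a16 (1.47-fold), Slc25a37 (1.46-fold), Slc25a46 (1.43-fold) and Slc25a39 (1.32-fold). The rises were Slc25a29 (2.59-fold), Slc25a40 (1.51-fold) and Ucp2 (1.48-fold). The median log2 fold change of the 38 was -0.16, beside 0.03 over all tested genes. The groups did not overlap for 18 carriers, or 14 with all IRF3-2D libraries below and 4 above, beside 44.9% of all tested genes without overlap (21.2% below and 23.7% above).

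The choice of scale moved these counts. With library totals alone, in place of TMM, the median of all tested genes was 0.49 on the log2 scale and that of the carriers 0.30. By that scale 12 carriers were called higher and 4 lower, where 41.7% of all tested genes were higher and 5.29% lower. Counts of the other gene lists below are to be read beside these shares, and beside 13.2% and 13.1% with TMM. The 4 lower by either scale were Slc25a45, Slc25a47, Slc25a48 and Slc25a10. In raw terms the family took 0.571% to 0.624% of the counts of a Ctrl library and 0.569% to 0.623% of those of an IRF3-2D library, which overlap. After TMM scaling the family summed to 6951 ± 273 CPM in Ctrl livers and 5132 ± 368 CPM in IRF3-2D livers (mean ± SD, n = 3 per group), and to 4498 ± 236 and 3864 ± 238 without Slc25a47.

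**Figure D1:**
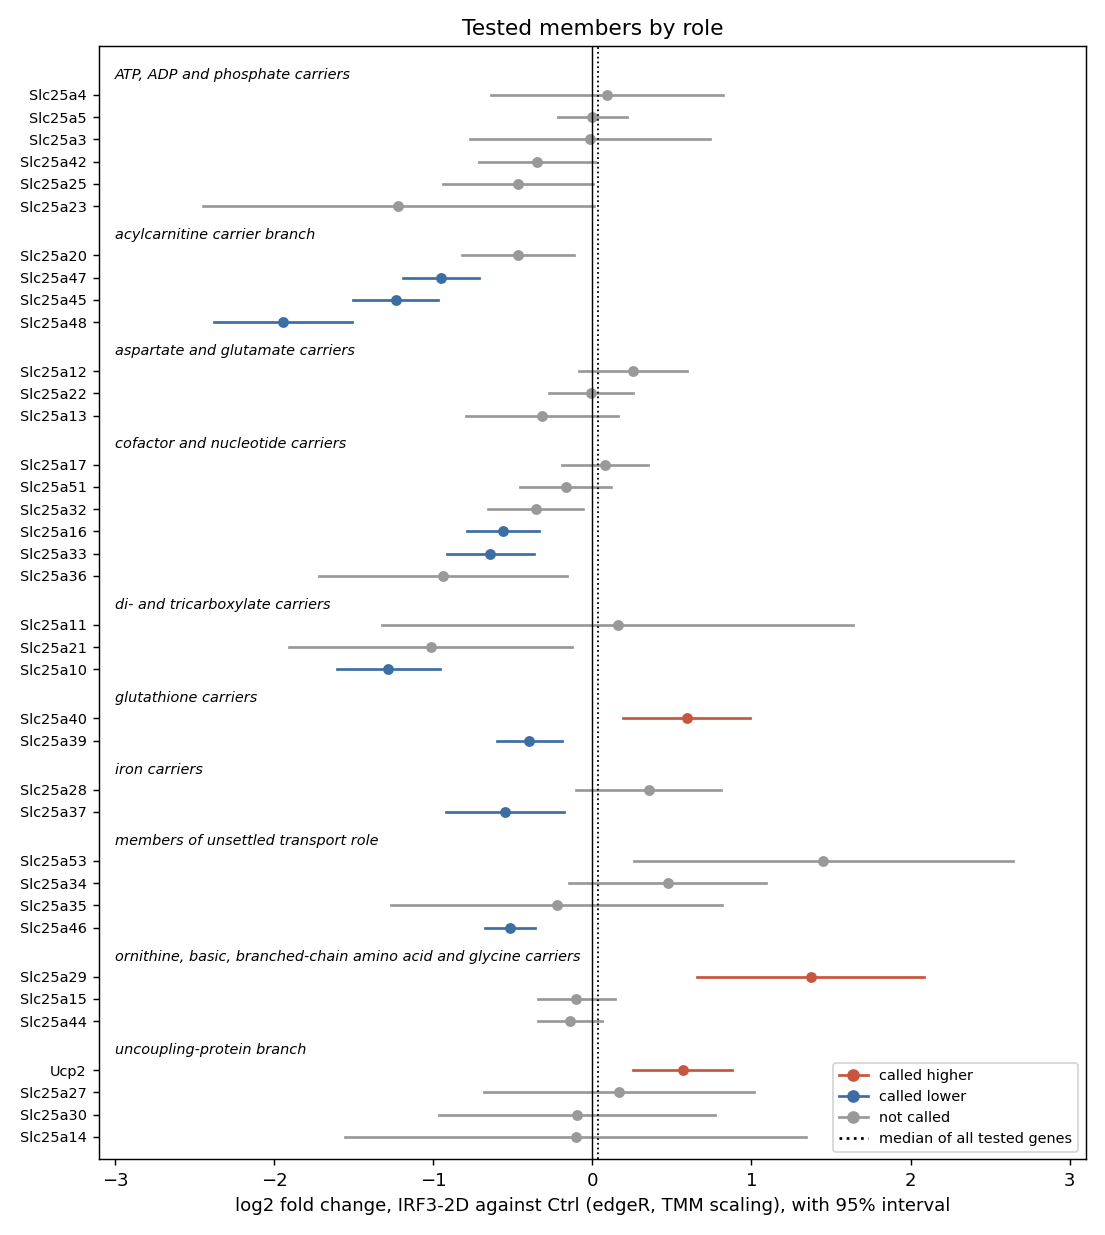
Log2 fold change of 37 of the 38 tested carriers, IRF3-2D against Ctrl (x axis, edgeR with TMM), grouped by role, with 95% intervals as bars and colours for the calls. The acylcarnitine carrier branch lies wholly to the left of 0, from -0.47 to -1.94, while ATP, ADP and phosphate carriers hold no call.

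Carriers differed widely in level, compared here as CPM per kb of transcript because genes differ in length. Slc25a47 stood first in Ctrl at 1358 to 1472 CPM per kb, above every other member, and held 35.3% of the family's counts in Ctrl and 24.7% in IRF3-2D. It was followed by the glutamate carrier Slc25a22 (480 to 526), the ADP/ATP carrier Slc25a5 (418 to 462), the glutathione carrier Slc25a39 (332 to 344) and the ornithine carrier Slc25a15 (283 to 312). These 5 did not overlap with their neighbours in this order in Ctrl. The order depends on the length used, a mean over annotated transcripts (1062 bases for Slc25a22 and 3430 for Slc25a15). In CPM without length, Slc25a15 had a Ctrl mean of 1025, above Slc25a22 at 527. Which transcripts the liver samples held was not tested. In IRF3-2D liver Slc25a22 and Slc25a5 overlapped (448 to 567 and 426 to 482 CPM per kb), as did Slc25a39 and Slc25a15 (235 to 272 and 251.2 to 311), which exchanged ranks 4 and 5. Slc25a10 went from rank 8 to 14 and Slc25a45 from 14 to 17 of 46, and Ucp2 from 16 to 12.

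**Figure D2:**
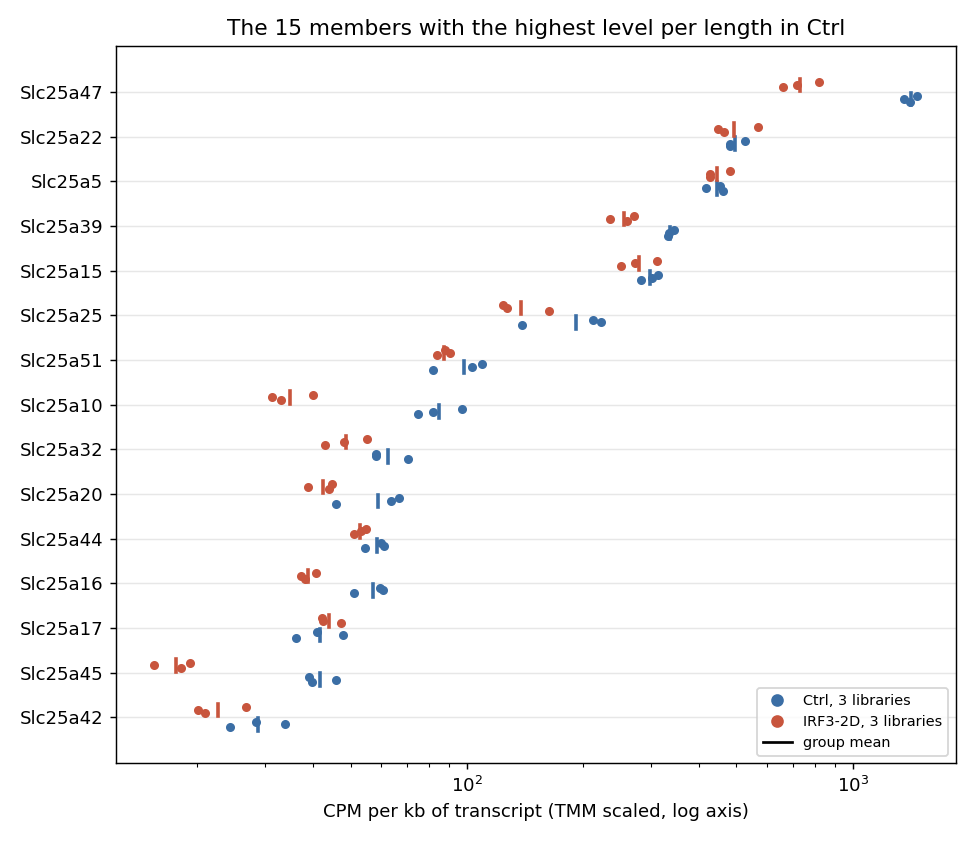
Level in CPM per kb of transcript (x axis, log scale) of the 15 carriers with the highest mean in Ctrl, with 1 point per library and a bar at each group mean. Slc25a47 is first in both groups, at 658 to 817 CPM per kb in IRF3-2D, and the points of the 2 groups are apart for Slc25a10 and Slc25a45, among others.

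The acylcarnitine carrier branch held 3 of the 9 falls. After TMM scaling all 4 of its members had every IRF3-2D library below every Ctrl library. Of all tested genes 13.1% were called lower and 21.2% had all IRF3-2D libraries below. Slc25a20, the carnitine-acylcarnitine translocase that brings long-chain acyl groups to beta-oxidation, gave the branch its name here, and the others are grouped by likeness of sequence. Slc25a48, reported as a mitochondrial choline carrier, had 355, 268 and 298 counts in Ctrl and 80, 103 and 111 in IRF3-2D libraries. In CPM it fell from 24.9 ± 3.53 to 6.47 ± 1.14 (mean ± SD, n = 3 per group), and its log2 fold change was -1.94 (SE 0.18, adjusted p = 0.000545 by edgeR). The highest IRF3-2D library stood at 7.27 CPM and the lowest Ctrl library at 22.5.

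Slc25a45, reported to carry methylated basic amino acids, stood at 61.4, 70.9 and 60.3 CPM in Ctrl and 28.1, 23.9 and 29.7 in IRF3-2D libraries. The groups were apart (log2 fold change -1.24, SE 0.11, adjusted p = 0.000481 by edgeR). Slc25a47, a liver-enriched carrier whose substrate is not settled, stood at 2449, 2355 and 2553 CPM in Ctrl and 1142, 1243 and 1417 in IRF3-2D libraries. Every IRF3-2D value was below every Ctrl value (log2 fold change -0.95, SE 0.10, adjusted p = 0.000894 by edgeR). Slc25a20 itself was at 81.9, 113 and 119 CPM in Ctrl and 78.3, 68.9 and 79.9 in IRF3-2D. Its groups did not overlap after TMM scaling, yet Ctrl replicate 1 lay close to the IRF3-2D libraries. The gene was not called (log2 fold change -0.47, 95% interval -0.82 to -0.11, adjusted p = 0.0588 by edgeR). It was called lower without Ctrl replicate 1 (-0.62, adjusted p = 0.00704), with DESeq2 (adjusted p = 0.0138), with upper-quartile scaling (adjusted p = 0.0451) and among genes with a mean count of at least 50 (adjusted p = 0.0418). The other 10 of the 14 alternatives did not call it, library totals alone among them (-0.01, adjusted p = 0.945).

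**Figure D3:**
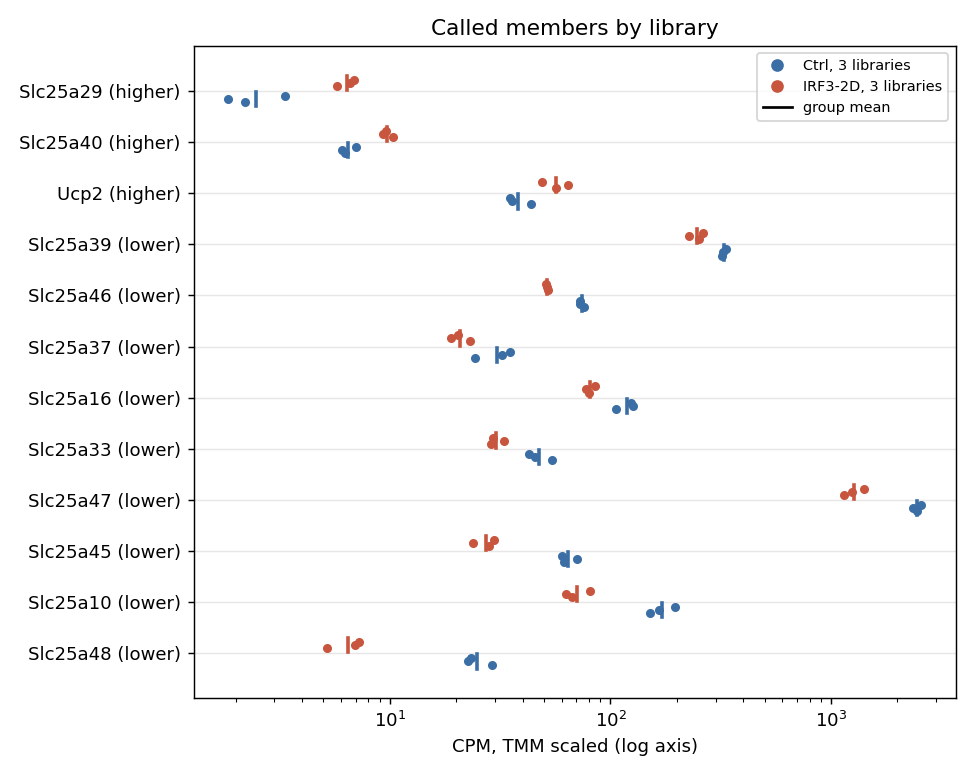
Level in CPM (x axis, log scale, TMM scaled) of the 12 called carriers in each library, with Ctrl in blue, IRF3-2D in red and a bar at each group mean. Points of the 2 groups do not overlap for any of the 12, and they are farthest apart for Slc25a48, at 22.5 to 29.0 CPM in Ctrl and 5.17 to 7.27 in IRF3-2D.

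Genes of the carnitine shuttle outside the Slc25 family were also examined. Slc25a20, the branch member of that shuttle, was not called. Of 6 tested, 3 were called lower and none higher, with a median log2 fold change of -0.85, and the same 3 and none with library totals alone. Cpt1a, which makes acylcarnitine at the outer membrane, fell 2.37-fold (574 ± 48.6 to 243 ± 34.6 CPM, mean ± SD, n = 3 per group, adjusted p = 0.000708 by edgeR). Crot, the peroxisomal carnitine octanoyltransferase, fell 2.39-fold, and Acsl1, which activates fatty acids, fell 4.12-fold. Cpt2 was not tested because of low counts.

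Among di- and tricarboxylate carriers, 1 of 3 tested was called. Slc25a10, the dicarboxylate carrier that exchanges malate or succinate for phosphate, was at 151, 165 and 196 CPM in Ctrl and 66.6, 63.2 and 81.0 in IRF3-2D libraries. No IRF3-2D library reached the lowest Ctrl value (log2 fold change -1.28, SE 0.14, adjusted p = 0.000915 by edgeR). Slc25a21, the oxodicarboxylate carrier, was at 3.18, 5.46 and 4.53 CPM in Ctrl and 3.04, 1.76 and 1.70 in IRF3-2D, all lower but close in 1 library of each group, and was not called (log2 fold change -1.02, 95% interval -1.91 to -0.13, adjusted p = 0.0913). Slc25a11, the oxoglutarate-malate carrier, had 9 to 37 counts, with an interval of -1.32 to 1.64. Slc25a1, the citrate carrier that feeds fatty acid synthesis, had 0 to 13 counts and was not tested, although it is known as a gene of lipogenic liver, and whether the table counts all its reads was not tested.

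Enzymes that use these carboxylates moved both ways. Of 7 tested, 3 were called lower and 1 higher (median log2 fold change -0.39), and 2 lower and 2 higher with library totals alone. Acly, which splits exported citrate, fell 1.99-fold (811 ± 27.6 to 408 ± 49.3 CPM, mean ± SD, n = 3 per group), and Pck1 and Pcx of gluconeogenesis fell 1.79-fold and 1.44-fold. The call of Pcx was lost with library totals alone and without Ctrl replicate 3 or IRF3-2D replicates 1 or 2. Cs, citrate synthase, rose 1.51-fold.

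None of the 3 tested aspartate and glutamate carriers was called by edgeR, DESeq2 or limma-voom, and 0 had an unadjusted p under 0.05. Slc25a22, the most abundant of them, was at 510, 513 and 559 CPM in Ctrl and 493, 476 and 603 in IRF3-2D, overlapping values with a log2 fold change of -0.01 (95% interval -0.27 to 0.26). Slc25a13, citrin, the liver aspartate-glutamate carrier of the malate-aspartate shuttle, had a log2 fold change of -0.32 (-0.80 to 0.16), and its paralogue Slc25a12 had 0.26 (-0.08 to 0.60). With library totals alone Slc25a12 and Slc25a22 were called higher. Slc25a18, the other glutamate carrier, had 1 to 8 counts. Of 6 listed enzymes of the malate-aspartate and glycerophosphate shuttles 3 were tested, while Got1, Gpd1 and Mdh2 were not. Those 3 tested enzymes were called lower, Mdh1 by 1.52-fold, Gpd2 by 1.36-fold and Got2 by 1.23-fold. None of these 3 enzyme calls held with library totals alone or when IRF3-2D replicate 1 or 2 was left out.

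Among ornithine and other amino acid carriers, 1 of 3 tested was called, and it rose. Slc25a29, a carrier of basic amino acids, had 27, 22 and 43 counts in Ctrl and 89, 98 and 105 in IRF3-2D libraries. In CPM it rose from 2.47 ± 0.789 to 6.42 ± 0.591 (mean ± SD, n = 3 per group) with no overlap (log2 fold change 1.37, SE 0.30, adjusted p = 0.0161 by edgeR). The call was lost without IRF3-2D replicate 2 (1.35, adjusted p = 0.0589) or 3 (1.31, adjusted p = 0.0516). Slc25a15, the ornithine carrier of the urea cycle, was at 970, 1035 and 1071 CPM in Ctrl and 862, 938 and 1068 in IRF3-2D. The groups overlapped (log2 fold change -0.10, 95% interval -0.35 to 0.14). Slc25a44, the branched-chain amino acid carrier, had -0.14 (-0.34 to 0.06). Both were called higher with library totals alone. Slc25a38, the glycine carrier of heme synthesis, was listed at 0 in every library, and Slc25a2 had at most 2 counts. Mdh2, a citric acid cycle enzyme that cells use generally, was also listed at 0 in all 6 libraries, so a 0 in the table is not read here as absence of the transcript.

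Around the ornithine carrier, 3 of 7 tested urea cycle and ornithine genes were called lower and 1 higher, and 2 lower and 1 higher with library totals alone. Oat, which turns ornithine to glutamate semialdehyde, fell 5.63-fold, from 729 ± 226 to 129 ± 20.02 CPM, and Ass1 fell 2.91-fold, from 5358 ± 718 to 1839 ± 261 (mean ± SD, n = 3 per group). Cps1, the entry enzyme of the cycle, fell 1.64-fold, a call lost with library totals alone. Otc rose 1.46-fold, a call lost in 7 of the 14 alternatives.

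Slc25a29 and Slc25a47, which changed in opposite directions, are neighbours on chromosome 12 of GRCm38 in GENCODE M21. Slc25a29 spans 108825873 to 108835883 on the minus strand, and Slc25a47 spans 108836046 to 108856815 on the plus strand, with 162 bases and no annotated gene between them. The upstream end of Slc25a47 comes from non-coding transcripts, and RefSeq places its start at 108851129. The sequences before the starts are shown for this pair, for the carrier with the deepest fall and for Ucp2, so that a reader can see how they differ. They come from RefSeq on GRCm38.p6, 5′ to 3′ on the gene's strand, without annotated exons, and capitals mark each CG dinucleotide.
Slc25a29 (chr12:108835884-108836045, minus strand): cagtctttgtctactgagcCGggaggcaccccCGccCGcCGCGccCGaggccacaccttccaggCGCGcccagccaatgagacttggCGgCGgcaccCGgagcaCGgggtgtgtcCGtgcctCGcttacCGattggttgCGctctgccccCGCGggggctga
Slc25a47 (chr12:108850879-108851128, plus strand): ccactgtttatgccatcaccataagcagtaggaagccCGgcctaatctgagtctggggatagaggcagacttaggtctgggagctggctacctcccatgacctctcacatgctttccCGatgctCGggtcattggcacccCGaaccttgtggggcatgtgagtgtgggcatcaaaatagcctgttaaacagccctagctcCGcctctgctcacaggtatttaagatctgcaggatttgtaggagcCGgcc
Slc25a48 (chr13:56438105-56438354, plus strand): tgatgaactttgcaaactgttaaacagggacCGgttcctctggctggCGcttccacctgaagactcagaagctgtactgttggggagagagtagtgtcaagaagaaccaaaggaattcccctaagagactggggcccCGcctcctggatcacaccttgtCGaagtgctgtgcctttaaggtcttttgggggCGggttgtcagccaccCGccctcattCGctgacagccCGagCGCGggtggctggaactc
Ucp2 (chr7:100493108-100493336, plus strand): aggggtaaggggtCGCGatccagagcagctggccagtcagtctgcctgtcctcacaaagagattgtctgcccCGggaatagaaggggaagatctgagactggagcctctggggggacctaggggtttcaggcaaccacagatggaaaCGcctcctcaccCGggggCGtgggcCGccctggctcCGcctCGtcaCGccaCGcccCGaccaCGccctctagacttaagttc

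The stretch before Slc25a29 holds 18 CG in 162 bases, against 6 in 250 for Slc25a47 and 10 in 250 for Slc25a48, and that before Ucp2 holds 13 in 229. Over the full promoter window of 250 bases before and 50 after the start, the 3 carriers that rose had 21 to 47 CG, and the 4 carriers lower by either scale had 7 to 15. Slc25a39, Slc25a33 and Slc25a16, whose falls were not called with library totals alone, had 45, 30 and 24. Windows of tested carriers without a call ran from 1 (Slc25a34) to 51 (Slc25a15), which covers all of these. A link between CG and direction was not tested. All 32851 windows of this length had a median of 7 and quartiles of 3 and 20. RefSeq windows were matched for 36 of the 46 carriers, and not for Slc25a37 and Slc25a46, which were called lower.

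IRF factors are known to bind interferon-stimulated response elements, so the same windows were searched on both strands for GAAA followed, after any 2 bases, by GAAA. The letters occurred in 2 of 46 windows of the carriers (4.35%), against 3.44% of all windows. Both are shown with 10 bases on each side and the match in capitals, and neither gene was called by TMM scaling. A match is a description of letters, not a bound site.
Slc25a22 (chr7:141435435-141435464, minus strand): agcccaaaatGAAAGAGAAAgtcctccccc
Slc25a15 (chr8:22398679-22398708, minus strand, match on the other strand): ggagagcagaTTTCCGTTTCcttggccagc

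Of the uncoupling-protein branch, 1 of 4 tested members was called. Ucp2, which exports four-carbon metabolites and was first known as an uncoupler, is found in healthy liver mainly in macrophages. It had 534, 426 and 447 counts in Ctrl and 873, 947 and 749 in IRF3-2D libraries. In CPM it rose from 38.1 ± 4.77 to 56.5 ± 7.52 (mean ± SD, n = 3 per group) without overlap (log2 fold change 0.57, SE 0.13, adjusted p = 0.0194 by edgeR). The call was lost when Ctrl replicate 2, Ctrl replicate 3, IRF3-2D replicate 1 or IRF3-2D replicate 2 was left out (0.47 to 0.56, adjusted p = 0.0616 to 0.0700). Slc25a30 was at 8.84 to 26.0 CPM over the IRF3-2D libraries, a wide spread (log2 fold change -0.09, 95% interval -0.96 to 0.77), and Slc25a27 and Slc25a14 had 6 to 62 counts per library.

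Macrophage markers were examined beside Ucp2. Among 12 tested markers of Kupffer cells and other macrophages, 4 passed as higher (Mpeg1, C1qb, Cd5l and C1qa) and none as lower, and library totals alone gave 8 higher. Of all tested genes 13.2% were higher, and 41.7% with library totals alone. The summed level of the macrophage markers was 567 to 684 CPM in Ctrl and 973 to 1322 in IRF3-2D. Mpeg1, which encodes a pore-forming protein of macrophages, rose 4.14-fold, and C1qb rose 1.62-fold, and both calls held in all 14 alternatives. The call of C1qa was lost in 6 of the 14, RLE and upper-quartile scaling among them, and that of Cd5l in 5. Clec4f, a Kupffer cell receptor, had a log2 fold change of 0.36 and was not called, Cd68 had at most 2 counts and Adgre1 had 9 to 14. The part of macrophages in the value of Ucp2 was not tested.

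Both glutathione carriers were called, in opposite directions. Slc25a39, which imports glutathione into the matrix, fell from 321, 324 and 333 CPM in Ctrl to 252, 228 and 263 in IRF3-2D libraries, with no overlap (log2 fold change -0.40, SE 0.09, adjusted p = 0.0153 by edgeR). With library totals alone its direction turned (0.05, adjusted p = 0.613), and the call was lost without Ctrl replicate 3 or IRF3-2D replicate 1 or 2 (-0.41 to -0.34, adjusted p = 0.0557 to 0.0621). Its paralogue Slc25a40 had 77, 72 and 90 counts in Ctrl and 160, 138 and 146 in IRF3-2D libraries. In CPM it went from 6.45 ± 0.510 to 9.74 ± 0.526 (mean ± SD, n = 3 per group, log2 fold change 0.59, SE 0.17, adjusted p = 0.0402 by edgeR). The call was lost with DESeq2 (0.57, adjusted p = 0.0522), with no count filter (0.60, adjusted p = 0.0620) and without any 1 of the 6 libraries (0.54 to 0.66, adjusted p = 0.0683 to 0.132). A ratio within a library does not depend on the scaling. Slc25a40 counts were 1.96%, 1.87% and 2.11% of Slc25a39 counts in Ctrl and 4.11%, 4.10% and 3.64% in IRF3-2D libraries. All 3 IRF3-2D ratios were above all 3 Ctrl ratios. That had to follow, as Slc25a40 was above and Slc25a39 below Ctrl in every IRF3-2D library, so it is not separate support. Such ratios were computed for 6 pairs of paralogues, and 2 of the 6 had groups apart, this pair and the iron carriers. The other 4 overlapped, namely Slc25a12 to Slc25a13, Slc25a5 to Slc25a4, Slc25a33 to Slc25a36 and Slc25a22 to Slc25a18. Slc25a12 counts, for example, were 17.5%, 13.2% and 26.6% of Slc25a13 counts in Ctrl and 23.2%, 35.7% and 24.3% in IRF3-2D libraries.

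Among 7 tested glutathione enzymes 2 rose and none fell, and library totals alone gave 4 higher. By these 2 scales 13.2% and 41.7% of all tested genes were higher. Gclm, the modifier subunit of the enzyme that limits glutathione synthesis, rose 1.74-fold and Gsr, glutathione reductase, rose 1.44-fold.

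The iron carriers gave 1 call of 2. Slc25a37, mitoferrin 1, which brings iron to the matrix and is best known in erythroid cells, was at 24.3, 32.1 and 35.1 CPM in Ctrl and 23.1, 19.01 and 20.4 in IRF3-2D. Ctrl replicate 1 lay next to the IRF3-2D values, and the log2 fold change was -0.55 (SE 0.16, adjusted p = 0.0401 by edgeR). The call was lost with library totals alone (-0.09), with no count filter (-0.54, adjusted p = 0.0509) and without any 1 library other than Ctrl replicate 1 (-0.63 to -0.44, adjusted p = 0.0627 to 0.124). Slc25a28, mitoferrin 2, the form found in most tissues, had 144, 216 and 210 counts in Ctrl and 273, 275 and 350 in IRF3-2D and was not called (0.35, 95% interval -0.10 to 0.81). With library totals alone it was called higher (0.81, adjusted p = 0.00825). Slc25a28 counts were 48.3%, 56.5% and 46.8% of Slc25a37 counts in Ctrl and 76.3%, 97.9% and 113% in IRF3-2D libraries. These ratios, the other pair of the 6 with groups apart, did not overlap.

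Of 8 erythroid markers 5 were tested and none was called by edgeR, DESeq2 or limma-voom (0 at an unadjusted p under 0.05), with a summed level of 746 to 1472 CPM in Ctrl and 648 to 1263 in IRF3-2D, which overlap. Epb42 was listed at 0 in every library, and the part of blood in the value of Slc25a37 was not tested. Of 7 tested genes of mitochondrial iron and heme use, 3 were called lower and 1 higher, and 1 lower and 2 higher with library totals alone. Fech, which puts iron into heme, fell 1.83-fold and Alas1, the entry enzyme of heme synthesis in liver, fell 1.56-fold, while Cpox of the same pathway rose 1.65-fold. Nfs1, at 2 to 16 counts, was the other lower gene, a call lost in 8 of the 13 alternatives that tested it. The call of Alas1 was lost with library totals alone and when Ctrl replicate 3, IRF3-2D replicate 1 or IRF3-2D replicate 2 was left out.

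Cofactor and nucleotide carriers gave 2 falls among 7 tested. Slc25a16, which is tied to mitochondrial coenzyme A, was at 106, 127 and 124 CPM in Ctrl and 79.7, 77.7 and 85.1 in IRF3-2D (log2 fold change -0.56, SE 0.10, adjusted p = 0.00573 by edgeR). Slc25a33, a pyrimidine nucleotide carrier, was at 54.3, 45.3 and 42.7 CPM in Ctrl and 28.8, 33.1 and 29.4 in IRF3-2D (log2 fold change -0.64, SE 0.12, adjusted p = 0.00729 by edgeR). Neither had an overlap between groups, and neither call held with library totals alone (-0.11 and -0.19, adjusted p = 0.347 and 0.307).

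Slc25a36, the other pyrimidine nucleotide carrier, was at 7.34, 7.48 and 5.78 CPM in Ctrl and 2.71, 5.28 and 2.75 in IRF3-2D libraries. Its groups did not overlap, but it was not called (log2 fold change -0.94, 95% interval -1.72 to -0.16, adjusted p = 0.0781). It was called lower with DESeq2 and limma-voom and without IRF3-2D replicate 2 (-1.32, adjusted p = 0.0289), but not with library totals alone (-0.47, adjusted p = 0.310). Slc25a32, linked to folate and FAD, reached at most 190 CPM in IRF3-2D, below every Ctrl library (-0.36, -0.66 to -0.06, adjusted p = 0.0804), and DESeq2 called it lower. Slc25a51, which imports NAD, had a log2 fold change of -0.17 (-0.45 to 0.12). The peroxisomal carrier Slc25a17 had 0.08 (-0.19 to 0.35) and was called higher with library totals alone (0.54, adjusted p = 0.0056). Of 6 tested genes of coenzyme A synthesis 3 were called lower and none higher, among them Pank1, the kinase of the entry step, by 2.23-fold, Pank3 by 1.52-fold and Coasy by 1.57-fold. Of these Pank1 alone was called lower with library totals alone, where 1 was higher. Of 6 tested mitochondrial one-carbon enzymes and their kin, 1 was called, Shmt2, which fell 2.19-fold.

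No ATP, ADP or phosphate carrier was called among 6 tested by edgeR, 0 had an unadjusted p under 0.05, limma-voom called 0, and DESeq2 called 1 lower, Slc25a25. Slc25a5, ADP/ATP translocase 2, was at 573, 518 and 564 CPM in Ctrl and 528, 528 and 597 in IRF3-2D, overlapping values with a log2 fold change of 0.00 (95% interval -0.22 to 0.21). It shares 49.4% of its 31-base words with other transcripts, mainly a processed pseudogene, so the placement of its reads is uncertain. With library totals alone it was called higher (0.45, adjusted p = 0.00714). Slc25a25, an ATP-Mg/phosphate carrier, was at 299.98, 482 and 461 CPM in Ctrl and 354, 275 and 269 in IRF3-2D, overlapping through Ctrl replicate 1. Its log2 fold change was -0.47 (-0.94 to 0.00, adjusted p = 0.132), and -0.66 (adjusted p = 0.021) without Ctrl replicate 1.

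Slc25a42, which carries coenzyme A and ADP, had -0.35 (-0.72 to 0.02). The related Slc25a23 was at 5.14, 5.72 and 4.22 CPM in Ctrl and 1.03, 3.99 and 1.44 in IRF3-2D, without overlap. It was not called (-1.22, -2.45 to 0.01), nor with library totals alone (-0.74, adjusted p = 0.297). Without IRF3-2D replicate 2 it was called lower (-2.01, adjusted p = 0.0202). Slc25a3, the phosphate carrier, had 42 to 70 counts and Slc25a4, ADP/ATP translocase 1, had 69 to 147. Slc25a3 is known as an abundant gene of most tissues, and whether the table counts all its reads was not tested. Slc25a31 had 0 to 10 counts, and Slc25a41 was listed at 0 in every library.

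Of the 4 tested members with no settled transport role 1 was called. Slc25a46, a protein of the outer membrane tied to mitochondrial shape, was at 75.7, 73.0 and 73.1 CPM in Ctrl and 52.2, 51.6 and 50.9 in IRF3-2D, with the least spread of the called genes (log2 fold change -0.52, SE 0.07, adjusted p = 0.0019 by edgeR). The call was lost with library totals alone (-0.07, adjusted p = 0.556). Slc25a53 had 4 counts in each Ctrl library and 11, 19 and 11 in IRF3-2D, with no overlap, and was not called (1.45, 95% interval 0.26 to 2.64, adjusted p = 0.0744). Slc25a34 had 47 to 123 counts (0.47, -0.14 to 1.09) and Slc25a35 had 13 to 25 (-0.23, -1.26 to 0.81). With library totals alone Slc25a53 and Slc25a34 were called higher (1.91 and 0.92, adjusted p = 0.0228 and 0.0239). Slc25a43 had at most 3 counts and Slc25a54 was listed at 0 in every library.

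The machinery that inserts carriers into the inner membrane gave no call. Of 11 tested genes of outer membrane receptors, small Tim chaperones and the TIM22 insertion complex, none was called by edgeR, DESeq2 or limma-voom. By edgeR 1 had an unadjusted p under 0.05. All IRF3-2D libraries were above for 2 and below for 2, beside 23.7% and 21.2% of all tested genes. The median log2 fold change of the 11 was 0.05. With library totals alone 5 were higher and none lower, where 41.7% of all tested genes were higher and 5.29% lower. Tomm70a, the receptor for carrier precursors, went from 176 ± 2.01 to 200.1 ± 10.5 CPM (mean ± SD, n = 3 per group, log2 fold change 0.18, adjusted p = 0.134). Of 11 other tested mitochondrial transporters 3 were called lower and none higher, Sfxn2 by 1.60-fold, the pyruvate carrier gene Mpc1 by 1.34-fold and Abcb10 by 1.498-fold. None of those 3 calls held with library totals alone, by which 3 of the 11 were higher and none lower.

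The counts behind these values limit them unevenly. Of the 38 tested carriers 13 had a mean count under 100, and 1 of these was called, Slc25a29. Slc25a48 and Slc25a33 have 1 annotated transcript each, and Slc25a39 has 15. Among called carriers the share of 31-base words found in transcripts of other genes was highest for Slc25a37 (7.72%) and Slc25a40 (4.88%), and it was at most 1.79% for the others. Exons of Ucp2 overlap those of Dnajb13 on the other strand, which had 6 to 17 counts per library, and exons of Slc25a10, Slc25a33, Slc25a37 and Slc25a46 overlap genes on the other strand that have no row. Exons of Slc25a11 overlap those of Rnf167, also on the other strand, which had 462 to 570 counts. The strand setting of the counting is not given in the sources used here.

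**Figure D4:**
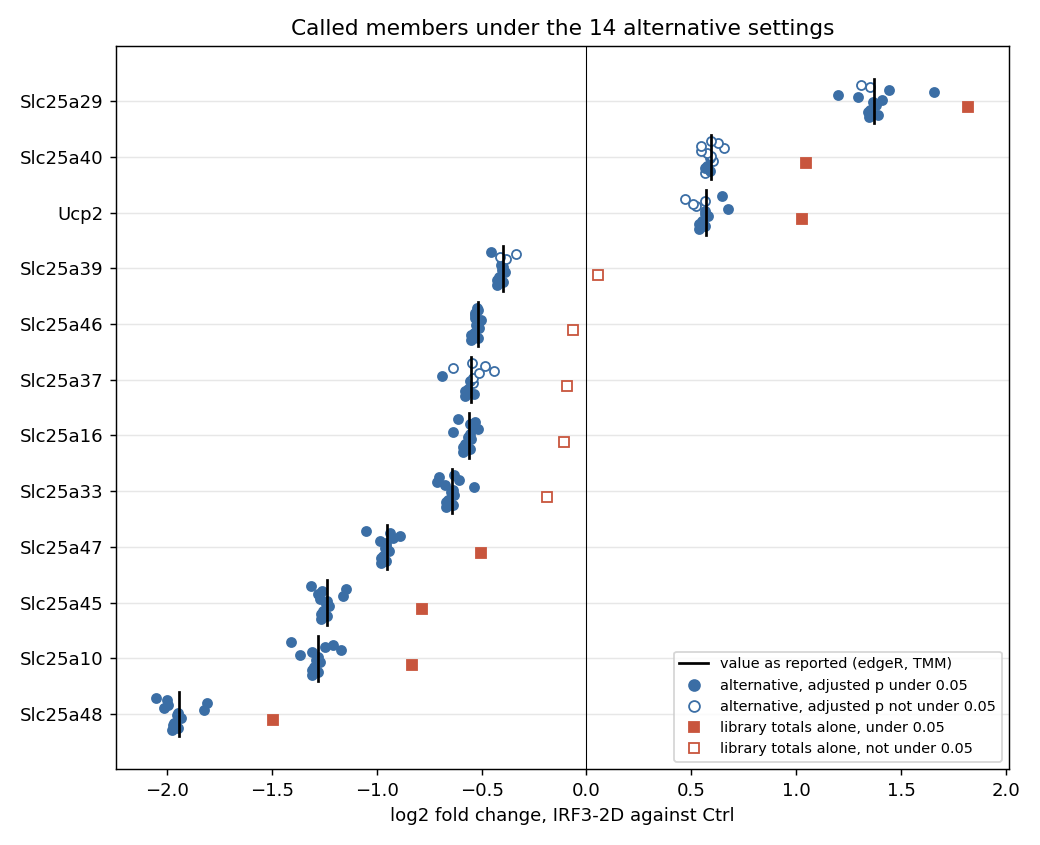
Log2 fold change of the 12 called carriers (x axis) under 14 alternative settings, with filled marks where the adjusted p was under 0.05, open marks where it was not, red squares for library totals alone and a black line for the value as reported. Slc25a10, Slc25a45, Slc25a47 and Slc25a48 have filled marks only, and the mark of Slc25a39 under library totals lies to the right of 0.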

How the data were processed

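Poly-A RNA was sequenced from strand-specific libraries of 6 liver samples, per the labels' protocols. The authors deposited a table of estimated counts, whole numbers without normalization, with a column for each library. The submitters' processing notes list Salmon 1.2.1, GRCm38 and mm10, giving no role to any. The sources used here do not give annotation, strand setting or filters. Of 20894 identifiers 20817 had a symbol in GENCODE M21. The filter was filterByExpr in edgeR 4.0.16 (R 4.3.3), and IRF3-2D was compared with Ctrl by its quasi-likelihood F-test with TMM and the group as the only term, adjusted by Benjamini-Hochberg. Every adjusted p comes from that test unless another tool is named. Standard errors were derived from the log2 fold change and the F value of the test, and intervals use them with a t quantile. The script was tested on simulated counts with as many rises as falls and no built-in scaling difference between groups. That test cannot judge the choice of scale. Level per kb used the mean length of coding transcripts. Members and lists were chosen with earlier results of these data known. The rule for names took every called carrier, in a role without a call the most abundant member, and up to 3 called genes with the smallest adjusted p of each list. Otc, Pcx, Nfs1 and the macrophage markers were named outside it, after their values were seen. All other carriers are given in brief, except 1 that is not reported here. Alternatives were DESeq2 1.42.0, limma-voom (limma 3.58.1), RLE, upper-quartile and library-total scaling, no count filter, a mean count of at least 50, a replicate block and leaving out each library. Protein sequences were not used here.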

Additional observations from a re-analysis of the deposited data

How the results depend on the processing

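Of 12 called carriers, 4 (Slc25a10, Slc25a45, Slc25a47 and Slc25a48) kept direction and call in all 14 alternatives, and 8 did not in at least 1. With library totals alone 12 carriers were called higher and 4 lower, and 4500 and 571 of all tested genes, against 3, 9, 1426 and 1418 with TMM; Slc25a39 then turned to 0.0542 on the log2 scale. Library totals apply no composition correction, and which scale is nearer to the amounts in the tissue was not tested. When single libraries were left out, 0 to 2 carriers were called higher and 7 to 11 lower, and 851 to 1312 and 920 to 1363 of all tested genes. The count of higher carriers was 0 without IRF3-2D replicate 2, and 1 when Ctrl replicate 2, Ctrl replicate 3, IRF3-2D replicate 1 or IRF3-2D replicate 3 was left out. All tested genes called higher fell to 866 and 851 without IRF3-2D replicates 1 and 2, and those called lower to 920 without IRF3-2D replicate 2. Those fits have fewer samples. DESeq2 called 2 carriers higher and 13 lower. Replicates with the same number did not deviate together (correlations of 0.10, -0.03 and 0.04). So few pairs cannot show whether they share a day or batch, and the labels do not say. With the replicate block 2 carriers were called higher and 8 lower (Slc25a40 and Slc25a37 lost their calls, adjusted p = 0.0914 and 0.0966), and 1038 and 1128 of all tested genes. Depth limits 13 tested carriers with a mean count under 100, where intervals are wide, and 8 carriers that were not tested.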
